A study of Homo sapiens with 12 samples.

Results

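The proteasome genes described here are those with the symbol PSMA, PSMB, PSMC, PSMD, PSME or PSMG followed by digits only, without PSMB8 and PSMB9. A probe set annotated to a single gene had to exist, and where a gene had several, the brightest on average across the 12 arrays stands for it. This gave 36 of 11963 genes, 14 of the core particle, 14 of the regulatory cap, 3 cap assembly chaperones, 3 activators and 2 core assembly chaperones. PSMA6 and PSME2, whose probe sets carry several symbols, and PSMA8, PSMB11, PSMC5, PSMD7, PSMD13, PSMG3 and PSMG4 were not analysed here. PSMC3IP and PSME3IP1 begin with such a symbol but are not proteasome subunits, and were left out.

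The cells were RCC4, an established cell line from a human clear cell renal carcinoma. Every culture received an siRNA for 2 days, directed against YAP (siYAP, the transcriptional co-activator YAP1) or non-targeting (siNT). Each was then given for 7 hours 1 µM erastin, which blocks the cystine importer and can set off ferroptosis, or its vehicle DMSO. The 4 groups of 3 Affymetrix arrays were siYAP with erastin, siYAP with DMSO, siNT with erastin and siNT with DMSO. The labels give a single line and do not say how many siRNA sequences were used, so an effect of the sequence other than on YAP cannot be told apart from silencing. In these bulk samples fewer cells of a kind and less RNA per cell cannot be told apart either.

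The proteasome degrades proteins tagged with ubiquitin. Its core particle is a barrel of alpha rings, which gate the entry, and beta rings, which hold the cutting sites. The cap that docks on the barrel has a ring of ATPases (PSMC genes), which unfold substrates, and non-ATPase subunits (most PSMD genes), which bind, clip and position them. Subunits are made in balanced amounts, and the transcription factor NFE2L1 raises their genes together when degradation falls short. Tumour cells rely on a high proteasome capacity.

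Values are log2 signals as RMA gives them, so a difference of 1 is a doubling. Array medians lay between 6.49 and 6.52 over all probe sets. YAP1 was 4.18 to 6.21 on the siYAP arrays and 8.47 to 8.65 on the siNT arrays, so each array went with its siRNA label. These values do not check the label of erastin or DMSO. All 7 measured renal tubule and clear cell carcinoma markers had means of 8.26 or more, whereas immune, endothelial and fibroblast markers had median means of 4.21, 4.33 and 5.10. Of 5 fibroblast and pericyte markers, ACTA2 and RGS5 rose with siYAP in DMSO, by 0.42 and 0.44, and ACTA2 rose by 0.42 under erastin. The summed level of that list was 26.6 to 26.7 for siYAP with erastin, 26.5 to 27.5 for siYAP with DMSO, 25.7 to 26.3 for siNT with erastin and 25.7 to 26.3 for siNT with DMSO; its part in the results below was not tested. The 36 proteasome genes had means of 8.83 to 12.8. Their order says nothing of transcript amounts, because probe sets respond differently.

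After YAP silencing most cap ATPase genes, PSMD2 and the cap chaperone gene PSMD10 were modestly lower, while most core genes did not pass the test. In DMSO 9 of 36 proteasome genes were called (limma adjusted p under 0.05), 8 lower and 1 higher, which is 25% against 33.7% of all genes tested. Under erastin 8 were called, 6 lower and 2 higher, which is 22.2% against 34.9% of all genes. By direction, 22.2% of the proteasome genes were lower in DMSO, against 15.6% of all genes, and 2.78% were higher, against 18.1%. Under erastin 16.7% were lower, against 14.8% of all genes, and 5.56% were higher, against 20%. The share called in either direction was below the background in both treatments. The share called lower was above it in DMSO and near it under erastin. The share in DMSO rests on few genes: 5 to 9 were lower with single arrays left out, and 6 with probe sets averaged. Without the dimmest 30% of genes 11 were called in each treatment, beside 49.7% of all genes in DMSO and 51.5% under erastin. The share called lower in DMSO is therefore not read as particular to the proteasome genes. A set of 7 genes was called in both treatments, all in the same direction. That is 77.8% of the calls in DMSO and 87.5% of those under erastin. The 2 comparisons share no array but use a common estimate of the spread. The same overlap was not counted over all genes, so it is not read as particular to the proteasome genes. The 7 genes were PSMC1, PSMC3, PSMC6, PSMD2, PSMD10 and PSME4, which were lower, and PSMD12, which was higher. For PSMD12 and PSME4 other probe sets of the gene went the other way.

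**Figure D1:**
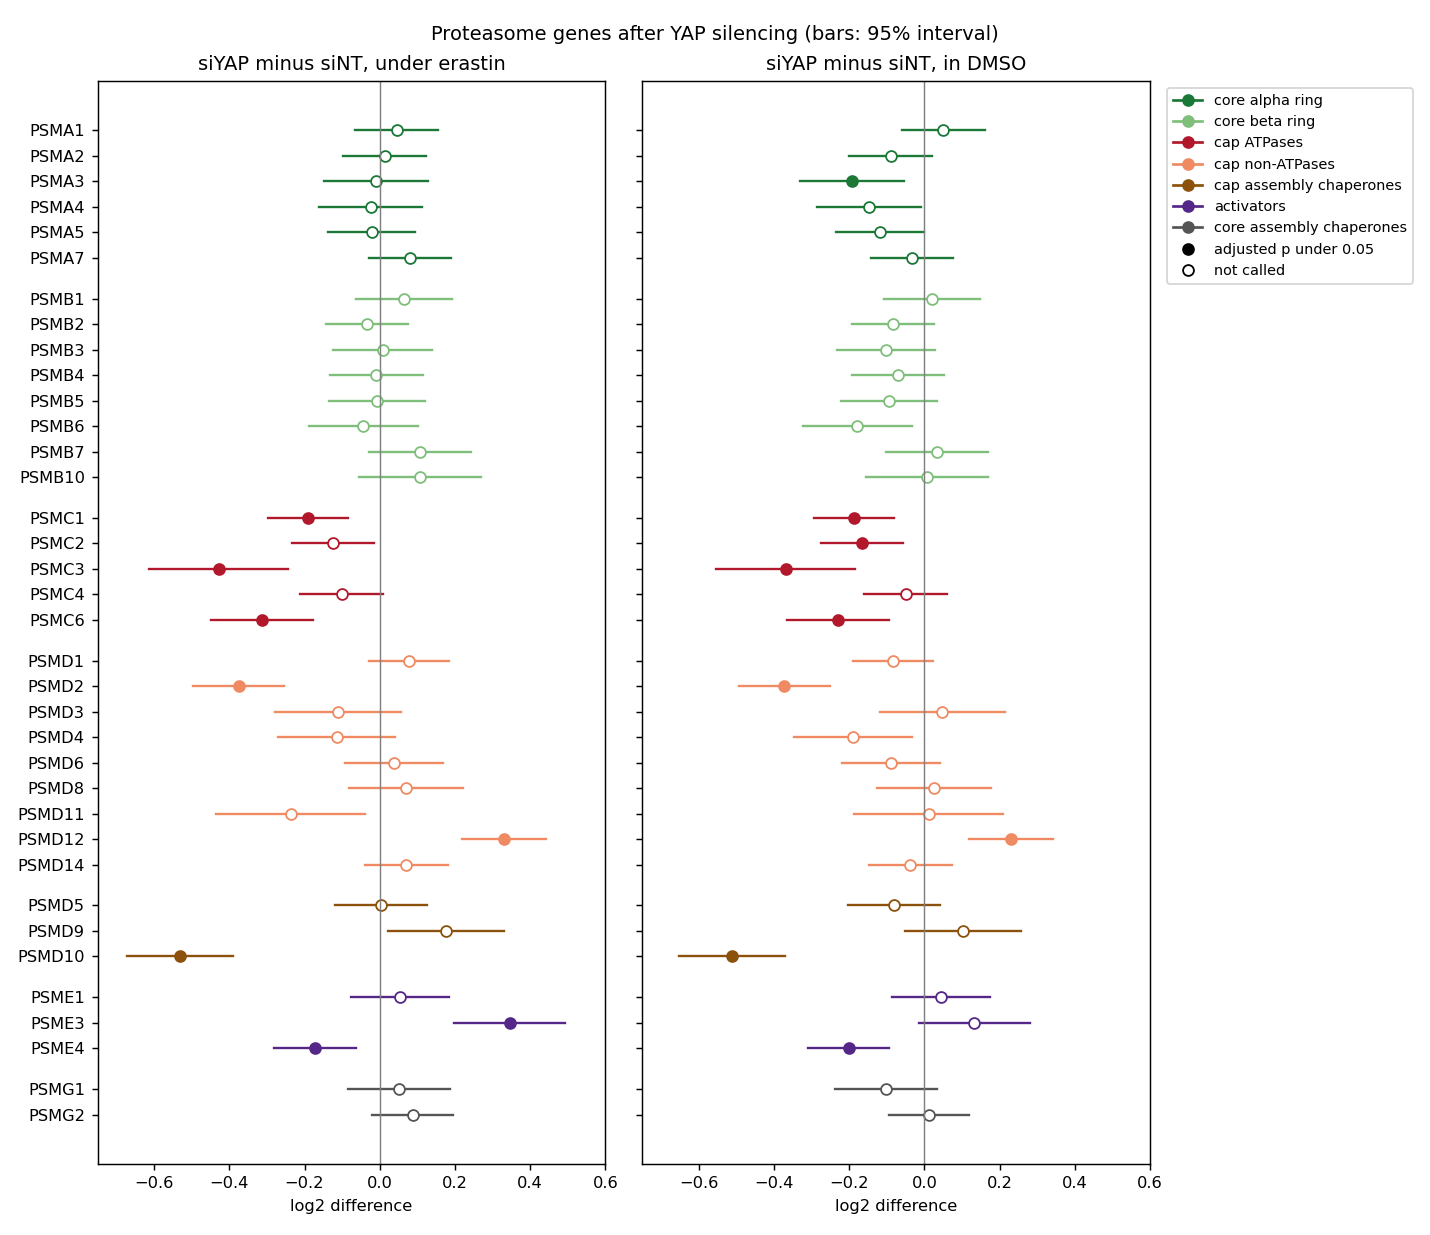
Log2 difference (x axis) of siYAP minus siNT for the 36 proteasome genes, under erastin (left) and in DMSO (right), with points for the limma estimate, bars for its 95% interval and colours for the role. Filled points passed an adjusted p of 0.05: the cap ATPases lie left of 0 in both panels, and no core gene is filled under erastin.

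PSMD10 had the largest fall of the 36 genes. It encodes gankyrin, a chaperone that holds a cap ATPase during assembly and is often raised in tumours. PSMD10 read 10.14, 10.02 and 10.10 with siYAP and DMSO, against 10.63, 10.61 and 10.56 with siNT and DMSO. The erastin arrays gave 10.13, 10.17 and 10.06 for siYAP, against 10.55, 10.62 and 10.78 for siNT. The siYAP arrays lay below all siNT arrays without overlap in both treatments. It fell by 0.51 (SE 0.0648, 1.43-fold lower, adjusted p = 4.55e-05 in limma) in DMSO cultures and by 0.53 (SE 0.0648, 1.45-fold lower, adjusted p = 3.32e-05) in those given erastin. Of all genes, 10.6% in DMSO and 10.3% under erastin changed at least as much, so the fall was moderate on the scale of the whole response. The other cap chaperones did not pass: PSMD5 differed by -0.08 in DMSO and by 0.0026 under erastin, and PSMD9 by 0.10 and 0.18. For PSMD9 a second, dimmer probe set was lower by 0.30 in DMSO (adjusted p = 0.0132), and for PSMD5 a dim second one was higher by 0.24 (adjusted p = 0.0448).

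Of the 5 measured cap ATPases 4 fell in DMSO and 3 under erastin, and all 5 had a negative estimate in both treatments. PSMC3 moved most. In DMSO PSMC3 stood at 10.33, 10.47 and 10.36 after siYAP, against 10.75, 10.60 and 10.92 after siNT. With erastin the siYAP arrays had 10.34, 10.45 and 10.28, against 10.70, 10.90 and 10.76 for siNT. The siYAP arrays lay below every siNT array of the same treatment. PSMC3 fell by 0.37 (SE 0.0849, adjusted p = 0.00436) in DMSO cultures and by 0.43 (SE 0.0849, adjusted p = 0.00157) in those given erastin, 1.29-fold and 1.35-fold lower.

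The DMSO values of PSMC6 were 11.04, 10.94 and 11.09 in siYAP cells, against 11.32, 11.29 and 11.15 in siNT cells. Its erastin values were 10.90, 10.94 and 11.01 in siYAP cells, against 11.26, 11.21 and 11.31 in siNT cells. These groups did not overlap either, and PSMC6 fell by 0.23 (adjusted p = 0.012) in DMSO cultures and by 0.31 (adjusted p = 0.00157) in those given erastin. The call in DMSO was lost without siNT replicate 1 or siYAP replicate 2, where the highest adjusted p was 0.0564. PSMC1 read 11.78, 11.80 and 11.81 with siYAP and DMSO, against 11.97, 11.98 and 11.9953 with siNT and DMSO. The erastin arrays gave 11.78, 11.81 and 11.72 for siYAP, against 11.94, 12.02 and 11.93 for siNT. The replicates of PSMC1 lay close together, with an SD of 0.015 after siYAP and 0.011 after siNT in DMSO. PSMC1 fell by 0.19 there (adjusted p = 0.0094), and by 0.19 with erastin (adjusted p = 0.00853).

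PSMC2 and PSMC4 were the ATPases with the smallest differences. In DMSO PSMC2 stood at 11.99, 11.96 and 12.02 after siYAP, against 12.15, 12.19 and 12.13 after siNT. With erastin the siYAP arrays had 11.91, 11.97 and 11.92, against 12.02, 12.03 and 12.13 for siNT. The arrays of PSMC2 did not overlap between siRNAs within a treatment. It fell by 0.17 in DMSO (adjusted p = 0.0219) and differed by -0.12 under erastin without passing (adjusted p = 0.0763). The call in DMSO was also lost without siNT replicate 1 or 2 and without siYAP replicate 1 or 2. A dimmer second PSMC2 probe set differed by 0.054 in DMSO, and the mean of both was not called (adjusted p = 0.497). The DMSO values of PSMC4 were 10.51, 10.56 and 10.57 in siYAP cells, against 10.65, 10.57 and 10.56 in siNT cells. Its erastin values were 10.49, 10.47 and 10.42 in siYAP cells, against 10.61, 10.51 and 10.58 in siNT cells. PSMC4 overlapped in DMSO and not under erastin, and its differences of -0.049 and -0.10 did not pass (adjusted p = 0.531 and 0.152). Over the ATPase list the median difference was -0.19 in both treatments, beside 0.019 in DMSO and 0.0094 under erastin over all genes.

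**Figure D2:**
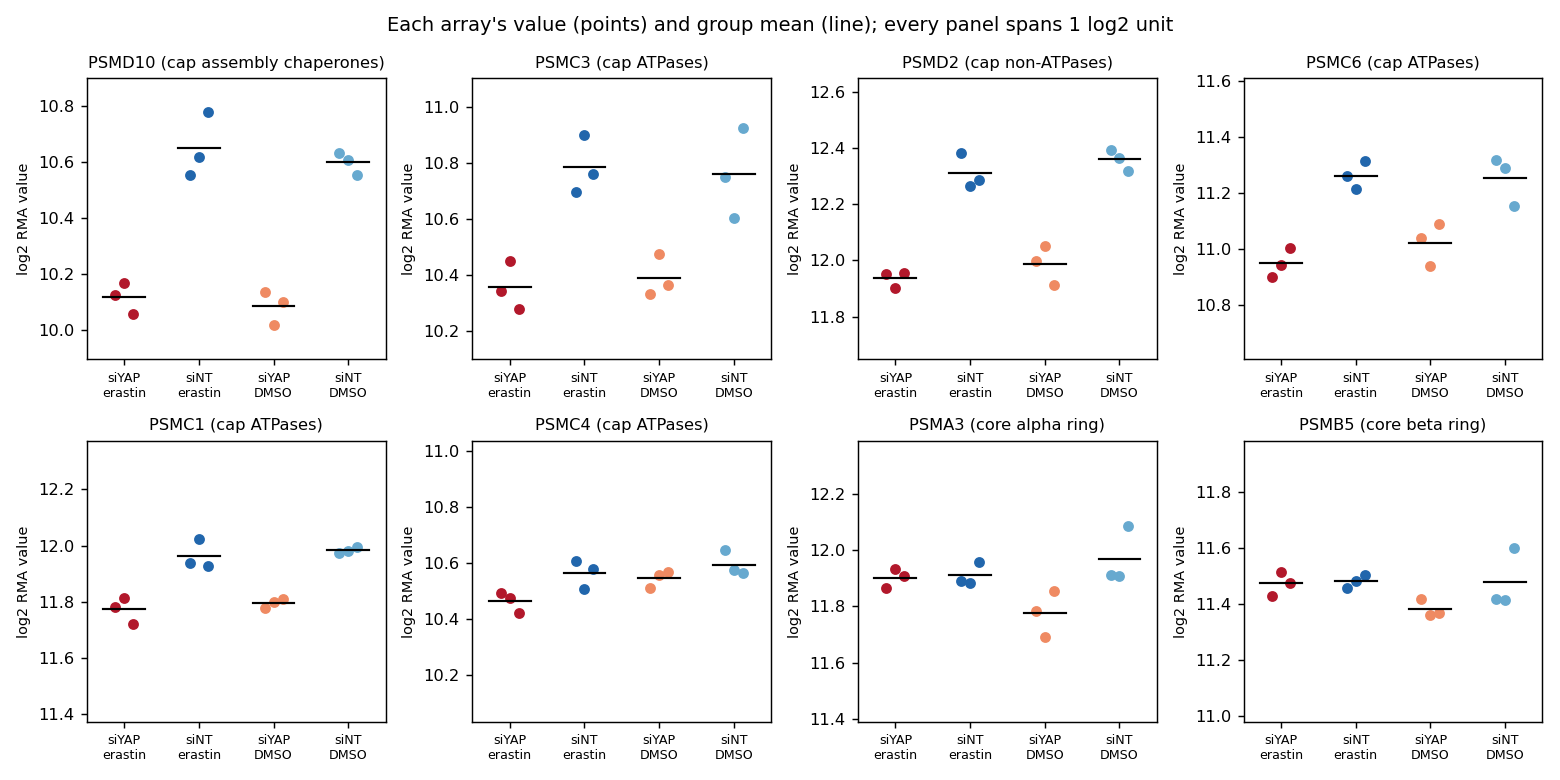
Log2 RMA value (y axis) of 8 proteasome genes on each array (points) with the group mean (line), for siYAP with erastin, siNT with erastin, siYAP with DMSO and siNT with DMSO. In PSMD10, PSMC3, PSMD2, PSMC6 and PSMC1 the siYAP points lie below the siNT points in both treatments, whereas the PSMB5 points overlap.

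Among the 9 cap non-ATPases 1 fell and 1 rose in each treatment. PSMD2 encodes a large base subunit on which shuttle proteins that carry ubiquitinated substrates dock. PSMD2 read 11.9999, 12.05 and 11.91 with siYAP and DMSO, against 12.40, 12.37 and 12.32 with siNT and DMSO. The erastin arrays gave 11.95, 11.90 and 11.95 for siYAP, against 12.38, 12.27 and 12.29 for siNT. No siYAP array reached a siNT array. PSMD2 fell by 0.37 (SE 0.0552, 1.29-fold lower, adjusted p = 0.000172) in DMSO cultures and by the same 0.37 (SE 0.0552, 1.3-fold lower, adjusted p = 0.000159) in those given erastin. Calls of PSMD2, PSMD10, PSMC1 and PSMC3 were kept in both treatments under all 13 other settings of limma that were run, among them the omission of each array. Averaging the probe sets of a gene is also among these settings. It leaves the values of these genes unchanged, as each has a single probe set.

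PSMD12, a scaffold subunit of the cap's lid, was the one cap gene called higher. In DMSO PSMD12 stood at 10.80, 10.76 and 10.87 after siYAP, against 10.62, 10.57 and 10.55 after siNT. With erastin the siYAP arrays had 10.82, 10.78 and 10.84, against 10.50, 10.44 and 10.50 for siNT. Its siYAP arrays lay above its siNT arrays throughout. It rose by 0.23 (adjusted p = 0.00334) in DMSO cultures and by 0.33 (adjusted p = 0.000224) in those given erastin. The second PSMD12 probe set went the other way: with erastin it read 10.16, 10.22 and 10.20 after siYAP, against 10.33, 10.36 and 10.44 after siNT. There it was lower by 0.18 (adjusted p = 0.0323 over all probe sets), and in DMSO it differed by -0.14 (adjusted p = 0.113). The mean of both probe sets was not called in either treatment, so no direction of the gene as a whole is given.

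The remaining cap subunits did not pass. PSMD4, a ubiquitin receptor of the cap, differed by -0.19 in DMSO (adjusted p = 0.0599) and -0.11 under erastin (adjusted p = 0.263). The DMSO values of PSMD4 were 11.39, 11.29 and 11.37 in siYAP cells, against 11.48, 11.43 and 11.71 in siNT cells. Its erastin values were 11.47, 11.51 and 11.44 in siYAP cells, against 11.57, 11.65 and 11.54 in siNT cells. Its groups did not overlap in either treatment, and a second of its 4 probe sets was called lower in DMSO, at -0.20 (adjusted p = 0.0458). PSMD11, which clamps the cap to the core, is set apart by its erastin arrays. PSMD11 read 10.40, 10.48 and 10.43 with siYAP and DMSO, against 10.53, 10.50 and 10.24 with siNT and DMSO. The erastin arrays gave 10.25, 10.24 and 10.13 for siYAP, against 10.26, 10.51 and 10.56 for siNT. In DMSO the siYAP values lay within the siNT range, and under erastin they lay below it, with a difference of -0.24 that missed the threshold (adjusted p = 0.0618). It was called in 4 of 13 other settings, which were median centring, removal of the dimmest genes, a trended and robust variance, and the omission of siNT replicate 1 with erastin (smallest adjusted p 0.0125). A second PSMD11 probe set differed by 0.11 there, in the other direction. PSMD14, the enzyme that clips ubiquitin chains off the substrate, differed by -0.037 and 0.071. It was 12.23, 12.19 and 12.30 after siYAP and 12.24, 12.31 and 12.28 after siNT with DMSO, and 12.24, 12.29 and 12.25 after siYAP and 12.15, 12.23 and 12.19 after siNT with erastin. PSMD1, PSMD3, PSMD6 and PSMD8 differed by -0.090 to 0.048 in DMSO and by -0.11 to 0.078 under erastin.

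Of the 14 core genes 1 passed in DMSO and none under erastin, where 0 also had an unadjusted p under 0.05. PSMA3, an alpha ring subunit, was the exception. In DMSO PSMA3 stood at 11.78, 11.69 and 11.85 after siYAP, against 11.91, 11.91 and 12.09 after siNT. With erastin the siYAP arrays had 11.87, 11.93 and 11.91, against 11.89, 11.88 and 11.96 for siNT. The groups were apart in DMSO and overlapped under erastin. PSMA3 fell by 0.19 in DMSO (adjusted p = 0.032) and differed by -0.0097 under erastin (adjusted p = 0.938). The test of the difference between treatments was not passed (interaction 0.18, adjusted p = 0.525). Its call in DMSO was lost without siNT replicate 3, without siYAP replicate 1 or 2, and in a fit of only the arrays compared, with adjusted p up to 0.128. With quantile normalization or a trended and robust variance, 4 core genes passed in DMSO, as PSMA4, PSMA5 and PSMB6 were then called lower too.

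The catalytic subunits lie in the beta ring. PSMB5 carries the chymotrypsin-like site that proteasome inhibitors used against myeloma bind. The DMSO values of PSMB5 were 11.42, 11.36 and 11.37 in siYAP cells, against 11.42, 11.41 and 11.60 in siNT cells. Its erastin values were 11.43, 11.52 and 11.48 in siYAP cells, against 11.46, 11.48 and 11.50 in siNT cells. The groups overlapped in both treatments. Its differences were -0.095 in DMSO (95% interval -0.22 to 0.03) and -0.0072 under erastin (-0.14 to 0.12). PSMB6 and PSMB7, which carry the caspase-like and trypsin-like sites, differed by -0.18 and 0.033 in DMSO and by -0.043 and 0.11 under erastin, and none of these passed. PSMB10, the interferon-inducible counterpart of PSMB7, stood at 10.08, 10.03 and 9.97 after siYAP and 9.95, 9.89 and 10.21 after siNT with DMSO. Under erastin it stood at 10.08, 10.12 and 10.11 after siYAP and 10.05, 9.98 and 9.96 after siNT. The siYAP arrays with erastin lay above the siNT arrays by 0.11 on average, without passing (adjusted p = 0.323). Across all 14 core genes the 95% intervals reached from -0.33 to 0.17 in DMSO and from -0.19 to 0.27 under erastin, so larger changes of a core gene lay outside every interval. A dimmer second probe set of PSMB2, another beta ring gene, was lower by 0.36 under erastin (adjusted p = 0.00615), while the one used differed by -0.034. With the mean of both probe sets PSMB2 was called lower there, at -0.20 (adjusted p = 0.0194), the one setting that added a core gene under erastin.

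One control array carried high core values. In siNT with DMSO, replicate 3 held the highest of the 12 values for 11 of 14 core genes, and for 5 of 14 cap genes. Averaged over core genes, the siYAP arrays with DMSO had 12.01, 11.96 and 12.02, against 12.03, 12.01 and 12.16 for siNT with DMSO. With that array the core median difference was -0.087 in DMSO, and without it -0.039. As a gauge of RNA degradation, the 3' ACTB control exceeded the 5' one by 2.97 (log2) on that array and by 2.40 and 2.66 on the others of its group. The GAPDH controls went the other way, with 0.116 on that array and 0.178 and 0.252 on the others. The part of RNA quality in the result was not tested.

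Set side by side, core and cap had the same median difference of -0.087 in DMSO, beside 0.019 over all genes. Under erastin the core median was 0.00039 and the cap median -0.11, beside 0.0094 over all genes. The mean over cap genes was 11.03 ± 0.015 after siYAP and 11.13 ± 0.025 after siNT with DMSO (SD, n = 3 each). With erastin it was 11.01 ± 0.025 after siYAP and 11.11 ± 0.028 after siNT. The core mean was 11.99 ± 0.030 after siYAP and 12.07 ± 0.085 after siNT with DMSO, and 12.06 ± 0.029 after siYAP and 12.04 ± 0.016 after siNT with erastin. Every siYAP array thus had a cap mean below every siNT array, and the core means of single arrays overlapped in both treatments.

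The core mean minus the cap mean on each array shows how their balance moved, while its absolute size reflects the probe sets. With erastin this gap came to 1.04, 1.05 and 1.08 after siYAP, against 0.98, 0.91 and 0.91 after siNT, a shift of 0.12. In DMSO it was 0.99, 0.93 and 0.97 after siYAP, against 0.90, 0.90 and 1.01 after siNT, a shift of 0.033. The groups were apart under erastin and overlapped in DMSO. With medians over genes in place of means the shift was 0.042 under erastin and -0.076 in DMSO, where its sign turned. The ACTB 3' to 5' difference with erastin was 3.35 to 3.71 after siYAP, against 1.49 to 2.82 after siNT. The same difference for GAPDH overlapped, at 0.127 to 0.203 after siYAP, against 0.0702 to 0.222 after siNT. The part of RNA quality in the result was not tested. No p is given for these scores.

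**Figure D3:**
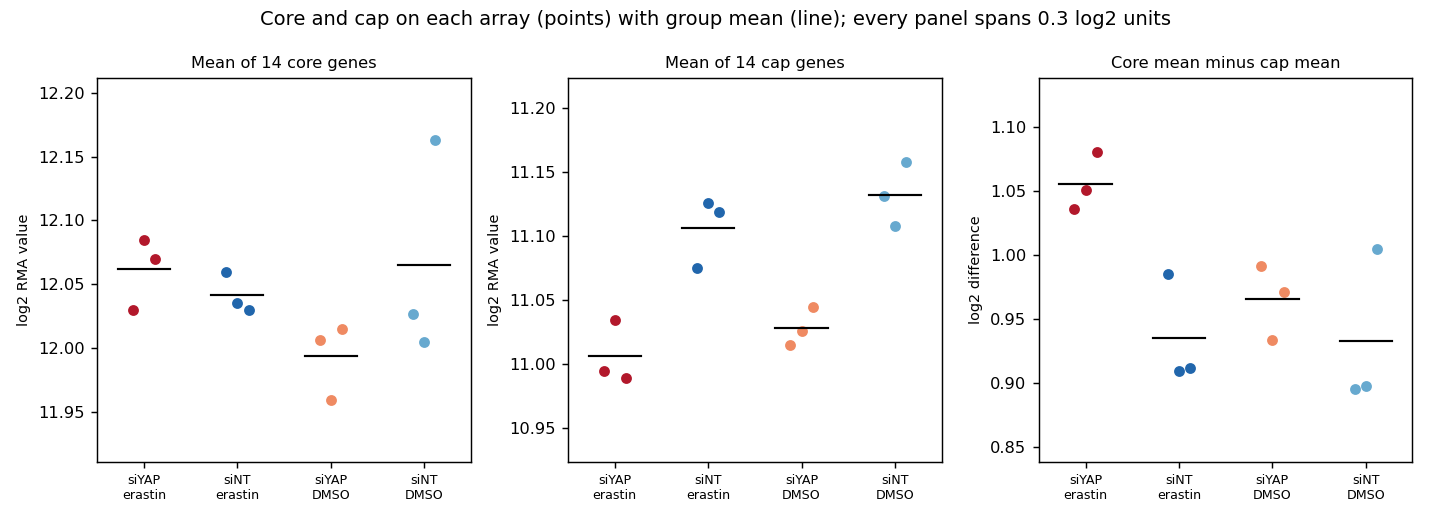
Mean log2 RMA value of 14 core genes (left), of 14 cap genes (middle) and their difference (right) on each array (points), with the group mean (line). All cap values after siYAP lie below those after siNT, and siNT replicate 3 with DMSO has the highest core value at 12.16.

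The activators, which open the barrel in place of the cap, did not move together. PSME1, a subunit of the interferon-inducible activator, differed by 0.045 in DMSO and 0.054 under erastin. It was 11.76, 11.74 and 11.74 after siYAP and 11.64, 11.62 and 11.83 after siNT with DMSO, and 11.79, 11.84 and 11.84 after siYAP and 11.76, 11.74 and 11.81 after siNT with erastin. PSME3 encodes the nuclear activator. PSME3 read 9.63, 9.51 and 9.58 with siYAP and DMSO, against 9.41, 9.38 and 9.54 with siNT and DMSO. The erastin arrays gave 9.63, 9.73 and 9.74 for siYAP, against 9.34, 9.47 and 9.25 for siNT. Its groups were apart under erastin, where it rose by 0.35 (SE 0.0677, adjusted p = 0.00142), and overlapped in DMSO, where the difference was 0.13 (adjusted p = 0.164). The interaction did not pass (0.21, adjusted p = 0.503). Of 3 other PSME3 probe sets 1 was also called higher under erastin, at 0.39, and 2 were not called, at 0.15 and 0.044.

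PSME4 encodes an activator linked to histone breakdown. In DMSO PSME4 stood at 8.79, 8.75 and 8.78 after siYAP, against 8.95, 9.04 and 8.93 after siNT. With erastin the siYAP arrays had 8.73, 8.68 and 8.68, against 8.83, 8.91 and 8.87 for siNT. On this probe set, its siYAP arrays were the lower ones, by 0.20 in DMSO (adjusted p = 0.00689) and 0.17 under erastin (adjusted p = 0.0164). The call under erastin was lost without siNT replicate 2 and without siYAP replicate 2 or 3. With the mean of the probe sets the direction turned, at 0.12 in DMSO, which was not called, and 0.24 under erastin, which was called higher. A second probe set gave 8.37, 8.36 and 8.38 after siYAP, against 7.97, 7.96 and 7.82 after siNT with DMSO. That set was higher by 0.46 (adjusted p = 5.81e-05) in DMSO and by 0.58 (adjusted p = 7.35e-06) with erastin, and the remaining, dim set was not called. The probe sets of PSME4 thus passed in opposite directions, and its direction is not settled by these arrays.

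**Figure D4:**
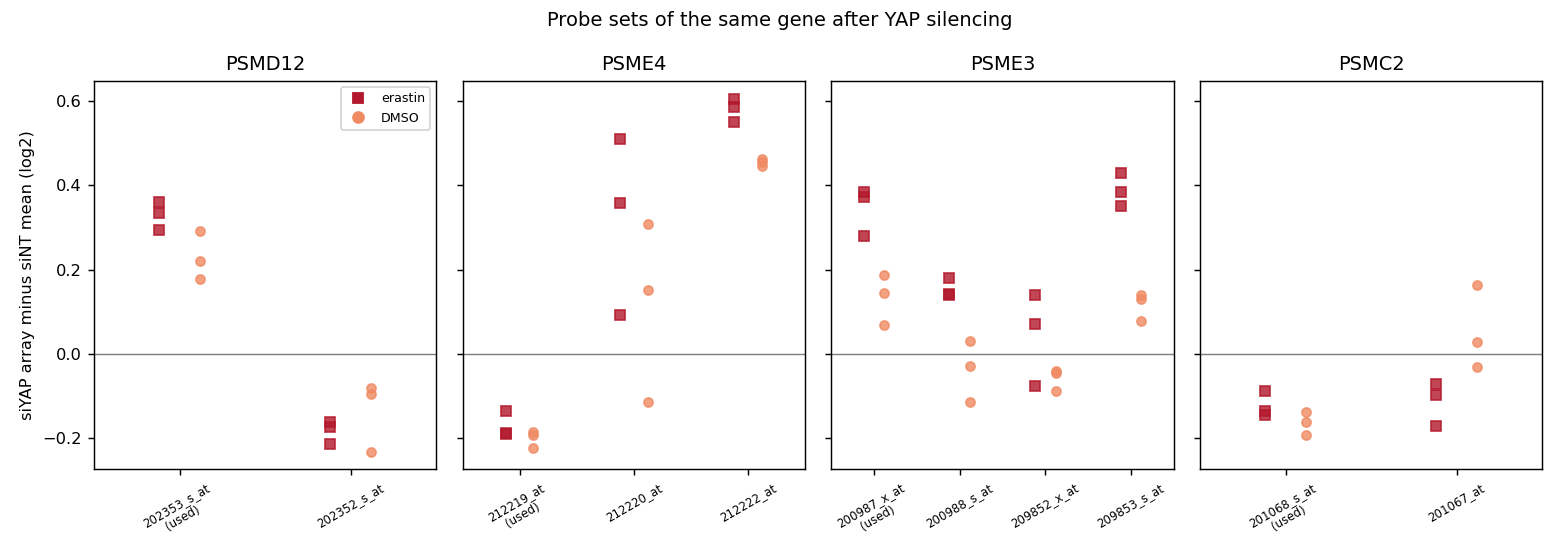
Each siYAP array minus the siNT mean of the same treatment (y axis, log2) for every single-gene probe set of PSMD12, PSME4, PSME3 and PSMC2, with squares for erastin and circles for DMSO. The used PSMD12 probe set lies above 0 and the other below it, and the used PSME4 probe set lies below 0 and another at about 0.46 and 0.58.

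The core assembly chaperones PSMG1 and PSMG2, which pair up to build alpha rings, did not pass. PSMG1 was 9.61, 9.52 and 9.76 after siYAP and 9.71, 9.71 and 9.77 after siNT with DMSO, and 9.54, 9.65 and 9.59 after siYAP and 9.56, 9.54 and 9.54 after siNT with erastin. It differed by -0.10 and 0.051, and PSMG2 by 0.012 and 0.087. Counting genes whose arrays did not overlap, 16 of 36 proteasome genes were lower and 1 higher in DMSO, where 20.7% of all genes were lower and 24.7% higher in this way. Under erastin 11 were lower and 9 higher, against 19.7% and 25.3% of all genes. All 5 measured ATPases were among the 11, and no core gene was. In DMSO 7 of the 16 were core genes and 4 were ATPases.

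Erastin changed no proteasome gene past the test. In siYAP cells 0 of 36 were called, 1 had an unadjusted p under 0.05 (PSMD11, -0.23), and 0.334% of all genes were called, 0.326% higher and 0.00836% lower. In siNT cells 0 of 36 were called, 2 had an unadjusted p under 0.05 (PSMG1, -0.18, and PSMD1, -0.13), and 0.752% of all genes were called, 0.485% higher and 0.267% lower. At an unadjusted p under 0.05 stood 10.7% and 10.6% of all genes in limma. Every other limma setting, and the zero transformation, also gave 0 calls among the 36.

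All 14 core genes had a positive erastin estimate in siYAP cells, from 0.0053 to 0.12 with a median of 0.070, and the cap median was -0.028. Leaving out single arrays left 12 to 14 of them positive. In siNT cells 3 of 14 core estimates were positive, with a core median of -0.023 and a cap median of -0.025. Without siNT replicate 3 with DMSO, 10 of 14 core estimates in siNT cells were positive, with a median of 0.032. In siYAP cells 7 core genes had erastin arrays above all DMSO arrays, where 12% of all genes were higher and 10.4% lower in this way. In siNT cells no core gene was apart, and 5.89% of all genes were higher and 8.51% lower without overlap. The ACTB 3' to 5' difference was 3.35, 3.57 and 3.71 on the siYAP arrays with erastin, against 3.14, 1.49 and 3.14 on those with DMSO. For GAPDH it was 0.203, 0.127 and 0.176 with erastin, against 0.223, 0.222 and 0.202 with DMSO, so the controls differed in direction. The part of RNA quality in the result was not tested. Core intervals reached from -0.10 to 0.26 in siYAP cells and from -0.20 to 0.15 in siNT cells.

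The interaction, which is the erastin response in siYAP cells minus that in siNT cells, was called for 0 of 36 proteasome genes and for 0% of all genes in limma. An unadjusted p under 0.05 was reached by PSMD1 (0.16) and PSME3 (0.21), and by 9.86% of all genes. The core median was 0.099 and the cap median 0.019, and both include siNT replicate 3 with DMSO.

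**Figure D5:**
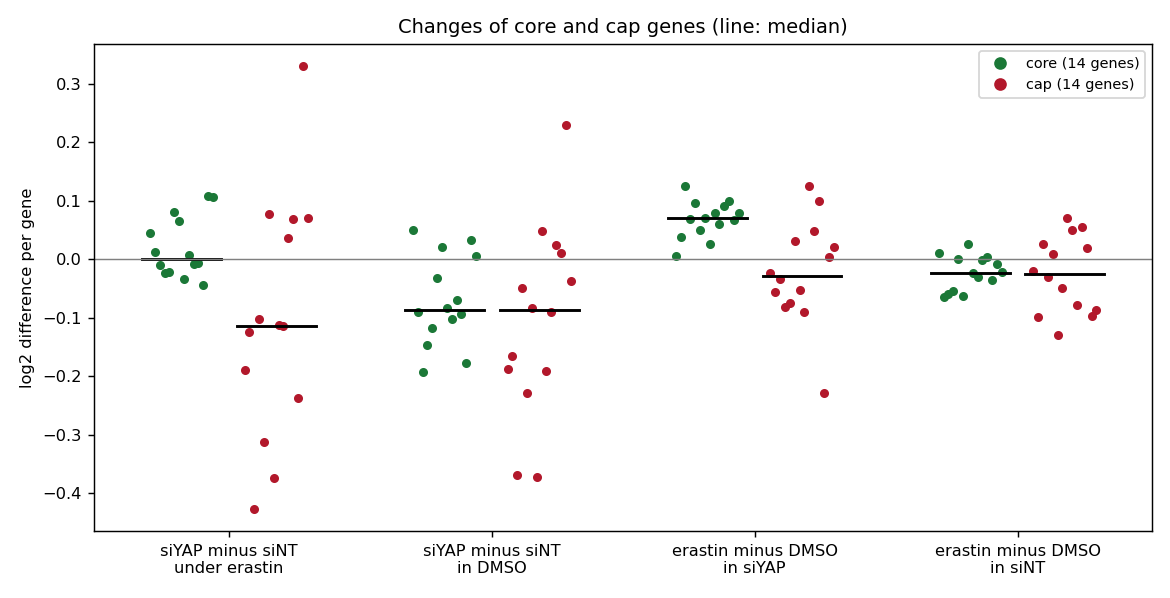
Log2 difference (y axis) of each core gene (green) and cap gene (red) in the 4 comparisons named below the axis, with the median as a line. Cap genes spread from -0.43 to 0.33 in siYAP minus siNT under erastin, where core genes stay between -0.043 and 0.11. The comparisons that share a group share its arrays.

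Genes that act on the proteasome but are not among the 36 gave further falls. Of 14 measured proteasome-bound cofactors (16 listed), 7 fell and 2 rose in DMSO, and 7 fell and 3 rose under erastin. That is 64.3% called, against 33.7% of all genes, in DMSO and 71.4%, against 34.9%, under erastin. The shares of all genes include dim ones. Without the dimmest 30%, 49.7% of genes were called in DMSO and 51.5% under erastin. The cofactors were not counted again in that setting. PAAF1, which binds the cap ATPases, was 6.81, 6.69 and 6.78 after siYAP and 7.36, 7.42 and 7.33 after siNT with DMSO. PAAF1 fell by 0.61 (adjusted p = 1.71e-06) in DMSO and by 0.35 (adjusted p = 0.000171) with erastin. UCHL5 and USP14, both deubiquitinases that sit on the cap, also fell. UCHL5 was lower by 0.39 in DMSO and 0.40 under erastin, and USP14 by 0.27 and 0.35. A second USP14 probe set was lower by 0.87 in DMSO and 0.91 under erastin, and a second UCHL5 probe set by 0.40 in both. RAD23B, counted among the falls under erastin (-0.25), had a second, similarly bright probe set that went the other way. That set differed by 0.13 under erastin and 0.11 in DMSO and was not called. The ubiquitin ligase gene UBE3C fell by 0.31 and 0.22, and the substrate shuttle gene UBQLN2 by 0.27 and 0.18. ZFAND5, which stimulates the proteasome, rose by 0.28 and 0.35 on the used probe set, and TXNL1, a thioredoxin-like protein of the cap, by 0.17 and 0.16. The cofactors' median difference was -0.16 in both treatments.

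Among the genes that regulate proteasome transcription or its regulator, 6 of 8 were measured. In DMSO 3 rose and 1 fell, and under erastin 2 rose and 1 fell. The called share was 66.7%, against 33.7% of all genes, in DMSO and 50%, against 34.9%, under erastin. Beside the 49.7% and 51.5% of genes called without the dimmest 30%, the share under erastin is not raised. NFE2L1, the transcription factor of proteasome genes, read 9.91, 9.90 and 9.98 after siYAP in DMSO, against 10.43, 10.45 and 10.43 after siNT in DMSO. With erastin it was 10.10, 10.11 and 10.14 after siYAP, against 10.60, 10.57 and 10.48 after siNT. NFE2L1 fell by 0.51 (adjusted p = 5.54e-06) in DMSO and by 0.44 (adjusted p = 1.96e-05) with erastin, and both further NFE2L1 probe sets were called lower too. NGLY1, the deglycosylase that processes the NFE2L1 protein, rose by 0.47 (adjusted p = 6.42e-06) and 0.57 (adjusted p = 1.32e-06). MAFF, a DNA-binding partner of such factors, rose by 0.41 and 0.52. NFE2L2, the related oxidative stress factor, rose by 0.15 in DMSO (adjusted p = 0.0388) and differed by 0.0054 under erastin. Of 3 measured genes of ubiquitin and its activation (6 listed), 0 passed in DMSO. Under erastin UBB rose by 0.13 and UBA6 fell by 0.72, with an SE of 0.185 for UBA6. A dim second UBA6 probe set was not called there, at -0.23 (adjusted p = 0.149 over all probe sets). Erastin itself led to 0 calls in these lists of cofactors, regulators and ubiquitin genes, in siYAP and in siNT cells.

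Upstream sequences were set beside these changes, from RefSeq promoters (GRCh38.p14), in which 31 of the 36 genes were found. The 5 without an entry were the core genes PSMA7, PSMB1, PSMB6 and PSMB7 and the cap gene PSMD4. The 250 bases before the annotated start are shown for the 5 genes with a single probe set that fell in both treatments. For these genes no second probe set could check the direction. The same bases are shown for PSMB3, a core gene that was not called. Each runs 5' to 3' on the strand of its gene. Capitals mark matches on either strand to TGACNNNGC (the antioxidant response element that NFE2L1 can bind), GGAATG (the core of TEAD sites, through which YAP acts) and CCAAT (the CCAAT box).
PSMD10 (chrX:108091543-108091792, minus strand): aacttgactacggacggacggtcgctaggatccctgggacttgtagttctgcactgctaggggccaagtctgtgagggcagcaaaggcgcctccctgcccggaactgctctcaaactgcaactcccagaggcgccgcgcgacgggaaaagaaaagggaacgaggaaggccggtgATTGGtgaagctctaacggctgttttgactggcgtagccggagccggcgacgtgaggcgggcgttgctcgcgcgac
PSMC1 (chr14:90256303-90256552, plus strand): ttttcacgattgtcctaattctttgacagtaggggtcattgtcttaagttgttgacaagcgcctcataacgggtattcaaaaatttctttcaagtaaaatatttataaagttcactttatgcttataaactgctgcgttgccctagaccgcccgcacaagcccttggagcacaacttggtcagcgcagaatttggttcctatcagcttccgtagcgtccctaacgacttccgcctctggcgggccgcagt
PSMC3 (chr11:47426440-47426689, minus strand): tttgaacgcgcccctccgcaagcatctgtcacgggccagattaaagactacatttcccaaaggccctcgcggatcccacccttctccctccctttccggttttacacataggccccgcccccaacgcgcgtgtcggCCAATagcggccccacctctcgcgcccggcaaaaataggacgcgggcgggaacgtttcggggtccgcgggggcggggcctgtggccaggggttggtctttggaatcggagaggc
PSMC6 (chr14:52706950-52707199, plus strand): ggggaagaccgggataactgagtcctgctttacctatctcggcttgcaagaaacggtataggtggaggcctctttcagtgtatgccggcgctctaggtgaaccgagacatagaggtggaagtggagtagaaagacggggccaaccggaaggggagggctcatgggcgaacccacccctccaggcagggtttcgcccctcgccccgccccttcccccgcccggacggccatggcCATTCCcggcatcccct
PSMD2 (chr3:184298991-184299240, plus strand): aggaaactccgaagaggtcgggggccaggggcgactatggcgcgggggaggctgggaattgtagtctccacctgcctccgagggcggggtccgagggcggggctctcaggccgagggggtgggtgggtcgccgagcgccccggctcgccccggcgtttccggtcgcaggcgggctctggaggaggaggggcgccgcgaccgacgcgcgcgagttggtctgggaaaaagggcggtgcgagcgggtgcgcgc
PSMB3 (chr17:38752491-38752740, plus strand): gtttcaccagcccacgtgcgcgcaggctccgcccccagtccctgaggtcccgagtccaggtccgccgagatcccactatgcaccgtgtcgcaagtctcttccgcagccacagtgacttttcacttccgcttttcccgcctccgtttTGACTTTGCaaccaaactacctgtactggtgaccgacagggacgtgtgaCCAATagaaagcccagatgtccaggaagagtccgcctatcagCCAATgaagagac

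PSMC6 has a GGAATG match 12 to 17 bases before the start, PSMC3 and PSMD10 have a CCAAT box, and PSMB3 has a TGACNNNGC match and 2 CCAAT boxes. PSMC1 and PSMD2 have none of the 3 marked motifs in this window. Over the 31 genes TGACNNNGC was found in 9 (29%), against 11% of 27305 promoters of the same length. Those promoters belong to genes of any expression level. The 9 were PSMB3, PSMD3, PSMD5, PSMD9, PSMD12, PSME1, PSME4, PSMG1 and PSMG2. PSMB3 was the only core gene among them, but the core genes PSMA7, PSMB1, PSMB6 and PSMB7 could not be searched. On the probe sets used, PSME4 was called lower and PSMD12 higher. GGAATG was found in PSMC6 and PSME3 (6.45% of the 31, against 11.9% of all), and CCAAT in 14 (45.2%, against 33%). Unmarked motifs were raised too: ETS (CCGGAAG) at 22.6%, against 8.82%, and the GC box (GGGCGG) at 61.3%, against 42.3%. The relaxed TGANNNNGC stood at 54.8%, against 35.4%. The E-box and YY1 stood at 9.68% and 6.45%, against 6.49% and 3.77%. E2F and NRF1 motifs were absent, against 0.469% and 1.13%. A raised share is thus not particular to TGACNNNGC. No printed match overlapped another. A match describes these letters and does not show binding.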

How the data were processed

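Gene expression was measured on 12 single-channel Affymetrix arrays, grouped by the sample titles. The log2 values were deposited by the authors; the submitters' processing notes name RMA and Affymetrix Expression Console, without a version or setting. The log2 scale was read from the values (2.02 to 14.4). RMA equalises arrays, so a change of total RNA per cell is not seen. The number of arrays limits the precision. Of 22277 probe sets, 62 were array controls and 19065 carried a single symbol, 19059 of which matched RefSeq by gene ID.

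With all 12 arrays in the fit, group means of 11963 genes were compared with limma 3.58.1 in R 4.3.3 (8 residual and 4.17 prior degrees of freedom), with Benjamini-Hochberg adjustment over all genes within each of 5 comparisons; all adjusted p-values are limma's and two-sided. The code of the fit was tried on simulated data with independent noise and few changed genes. That setting differs from these arrays, so it does not check the calls made here. The series text speaks of biological triplicates without describing separate cultures; the p-values therefore reflect the spread among these arrays, which may be technical.

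Genes and lists were chosen with earlier results of these data known, and the motifs (10 were counted, 3 are marked in the sequences) after the values were seen. Values on every array are given for called members, up to 8 each way after silencing and 4 with erastin, and for PSMB5, PSMB10, PSMC4, PSMD4, PSMD11, PSMD14, PSME1, PSME4 and PSMG1. Core comprises PSMA and PSMB genes, cap PSMC and PSMD genes without PSMD5, PSMD9 and PSMD10. Alternatives were a fit of the arrays compared, the replicate block, median centring, quantile normalization, removal of the dimmest 30% of genes, averaging the probe sets of a gene, a trended and robust variance, the submitters' zero transformation (each array minus the control mean, beyond 1 log2 unit), each array left out, and each other probe set. Scan dates were not used here.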

Additional observations from a re-analysis of the deposited data

How the results depend on the processing

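The counts of called proteasome genes stayed within 1.5 times of the reported ones under every limma setting. The genes behind a count could change. With averaged probe sets under erastin, PSME4 was called higher instead of lower, PSMB2 was added as lower, and PSMD12 was lost. In DMSO 6 to 13 were called and under erastin 7 to 11. Leaving out single arrays gave 6 to 10 in DMSO, with 6 without siYAP replicate 2, and 7 to 9 under erastin. It gave 0 for both erastin responses and for the interaction. By the zero transformation beyond 1 log2 unit, 0 were called after silencing in DMSO and 0 under erastin, because no proteasome gene moved that far. With the replicate number as a block 9 and 8 were called, and the call of every gene with values on each array was the same. Same-numbered arrays correlated in their deviations at -0.417 to 0.19, and an array correlated best with its own number in 11 of 36 cases, so the numbers are not taken as pairs.

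Core minus cap shifts with single arrays left out were 0.014 (without siNT replicate 1) to 0.069 (without siNT replicate 3) for silencing in DMSO, 0.11 to 0.15 for silencing under erastin, -0.022 to 0.039 for erastin in siNT cells, 0.075 to 0.10 for erastin in siYAP cells and 0.052 to 0.11 for the interaction. With medians over genes the silencing shifts were -0.076 in DMSO and 0.042 under erastin; the cause was not tested. With quantile normalization PSMD4 in DMSO (-0.20) and PSMC2 under erastin (-0.14) were also called. Another probe set of PSMC2 in DMSO gave 0.054, of PSMD12 -0.14 in DMSO and -0.18 under erastin, and of PSME4 0.12 and 0.46 in DMSO and 0.32 and 0.58 under erastin, each opposite in sign to the reported value. The median erastin response of core genes in siYAP cells was 0.049 to 0.091 with single arrays left out, a range added after seeing the data.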
